A study of Mus musculus with 18 samples.

Results

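The mouse mitochondrial chromosome carries 37 genes, and this account describes the RNA counted from them in knee cartilage after rupture of the anterior cruciate ligament (ACL). The genes were taken as every gene of chromosome M in the GENCODE M21 annotation of the mouse genome GRCm38. They comprise 2 ribosomal RNA (rRNA) genes, 22 transfer RNA (tRNA) genes and 13 protein genes, out of 49184 genes that had at least 1 matched transcript. Total RNA, after removal of rRNA with a kit that takes out both cytoplasmic and mitochondrial rRNA, was sequenced from 18 libraries of femoral condyle cartilage. All libraries came from male C57Bl/6J mice, which were 12 weeks old. The right knee of injured mice had its ACL ruptured mechanically under anaesthesia and the left knee served as the contralateral control, with tissue taken at day 1 or day 7, while naïve mice had no rupture. The labels place the naïve libraries at day 7, so comparisons of day 1 with naïve cartilage also differ in day. The groups held 6 naïve libraries, and 3 libraries each of day 1 contralateral, day 1 injured, day 7 contralateral and day 7 injured cartilage. Each library was a pool of cartilage from several mice, and the sources differ on how many. The series text gives 4 mice for every library. The study's scheme gives 2 for naïve and day 1 pools but 4 for day 7 contralateral and injured pools. It attributes the pools of 4 to cartilage partly lost at day 7. By that scheme, pool size and this loss cannot be told apart from group when day 7 contralateral or injured libraries are compared with naïve or day 1 ones. Injured and contralateral pools came from knees of the same mice, and the 6 naïve pools were drawn from 6 mice, so naïve libraries also share animals, but the labels do not say which libraries share which mice. Differences between pools therefore set the error in every test. The libraries held between 16074762 and 41794005 estimated counts.

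Mitochondrial DNA encodes core subunits of the respiratory chain and of the ATP synthase, together with the rRNAs and tRNAs needed to translate them inside the organelle. All other parts, including the polymerase and the proteins that process and protect the RNA, are made from nuclear genes. Each strand is transcribed as a long precursor, from which the tRNAs are cut out to release rRNAs and mRNAs. Most genes lie on the strand that carries both rRNAs. mt-Nd6, which encodes a complex I subunit, and 8 of the tRNAs lie on the other strand, named the reverse strand here after its direction in the reference. Articular chondrocytes live at low oxygen and take much of their energy from glycolysis.

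The genome is so compact that neighbouring genes share bases, and this limits which gene a read can be given to. The largest overlap is the 43 bases at chrM:7927-7969, where the reading frame of mt-Atp8 runs into that of mt-Atp6 (both encode ATP synthase subunits). The end of mt-Nd5 also overlaps, by 14 bases at chrM:13552-13565, the end of mt-Nd6 on the opposite strand. For mt-Nd5 and mt-Nd6, on opposite strands, the overlap limits the counts only if reads were counted without strand. The final stretches of these genes, from the GENCODE M21 transcripts and 5′ to 3′ along each gene, are shown because they mark the bases that neighbours share, in capitals.
mt-Atp8 end: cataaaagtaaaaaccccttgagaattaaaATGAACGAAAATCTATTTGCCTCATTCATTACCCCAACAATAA
mt-Nd5 end: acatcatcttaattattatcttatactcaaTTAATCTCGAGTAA
mt-Nd6 end: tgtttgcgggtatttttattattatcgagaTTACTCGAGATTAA
The 5 tRNA genes with the highest mean count are given next, all on the reverse strand, because they hold most of the tRNA signal. Capitals mark the anticodon, the triplet that reads the codon for proline, glutamate, serine, tyrosine and cysteine in turn. Their positions are chrM:15356-15422 for mt-Tp, chrM:14071-14139 for mt-Te, chrM:6870-6938 for mt-Ts1, chrM:5260-5326 for mt-Ty and chrM:5192-5257 for mt-Tc.
mt-Tp: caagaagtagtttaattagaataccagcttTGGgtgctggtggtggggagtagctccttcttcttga
mt-Te: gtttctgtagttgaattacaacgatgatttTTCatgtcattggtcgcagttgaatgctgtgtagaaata
mt-Ts1: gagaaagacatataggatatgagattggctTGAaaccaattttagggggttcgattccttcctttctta
mt-Ty: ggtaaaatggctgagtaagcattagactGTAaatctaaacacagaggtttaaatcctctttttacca
mt-Tc: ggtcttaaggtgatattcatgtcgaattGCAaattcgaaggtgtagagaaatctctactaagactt

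One library stood apart from all others before any comparison of groups. Chromosome M genes held 0.878% of all estimated counts in day 7 contralateral replicate 1, against 3.56% to 8.51% in the other 17 libraries. Its remaining RNA was also unusual, since its 10 most abundant genes took 40.9% of the counts (16.3% to 29.4% elsewhere) and 3.90% of its counts fell on transcripts with no match in the annotation, the largest share of any library. The deficit was not even along the chromosome. Normalised CPM (each library's counts brought to a common total, CPM, and then scaled by TMM, the trimmed mean of M values of edgeR) was the lowest of all 18 libraries for 11 of the 13 protein genes. For mt-Atp6 the normalised CPM was 75.3 in that library, against a median of 1114 in the other 17, which is 14.8-fold lower. mt-Co3, a subunit of cytochrome c oxidase, was 12.7-fold and mt-Cytb, the only complex III subunit encoded here, 11.3-fold below its own median in the other 17. By contrast, mt-Nd5 stood at a normalised CPM of 882 in that library, with a median of 889.6 in the other 17. These values carry the library's TMM factor of 0.696, the lowest of all (0.829 to 1.16 in the others). Unscaled, mt-Nd5 was at 589.9 CPM against 431 to 1541 in the others, within their range, and mt-Atp6 at 50.4 CPM against 455 to 1945. Its mt-Nd6 value, a normalised CPM of 295, lay above the 56.7 to 257 of the others, but unscaled it was 198 CPM against 46.4 to 294, within their range. mt-Ts1 was highest there on both scales, with a normalised CPM of 17.9 against 1.07 to 6.09 and an unscaled CPM of 12.0 against 1.19 to 5.72. The main ratios and fold changes that use the day 7 contralateral group are given below with and without this library.

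The libraries were labelled as cartilage and chondrocytes, and chondrocyte genes were present in all of them. Acan, the core protein of the large cartilage proteoglycan, ran from 254 to 1058 CPM (unscaled, of all estimated counts), and Col2a1, the main cartilage collagen, from 2502 to 6985. The highest Col2a1 value was that of day 7 contralateral replicate 1, and naïve replicate 3 was next at 4910 CPM. RNA of other tissues was present too. Haemoglobin Hbb-bs ran from 5565 to 20463 CPM, and Ckm, the muscle creatine kinase, from 253 to 1914. Hbb-bs too was highest in day 7 contralateral replicate 1, with day 1 contralateral replicate 1 next at 18674 CPM. In pooled tissue of this kind, a lower count can mean fewer cells of a type or less RNA in each cell, and these cannot be told apart.

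In naïve cartilage the order of the genes per unit length was led by the rRNAs, followed by the subunits of cytochrome c oxidase. Levels between genes are compared in TPM, the deposited transcript abundance that the authors' quantification corrected for length and brought to a common total. mt-Rnr2, the large rRNA, stood at 15243 ± 3112 TPM (SD, n = 6) and mt-Rnr1, the small rRNA, at 5563 ± 1672 TPM, both after an rRNA removal step, so their levels are what that step left behind. Among the mRNAs, mt-Co3 was at 2058 ± 427 TPM and mt-Co1 at 2003 ± 422 TPM, and these neighbours did not differ beyond their spread, mt-Co3 being the higher in 4 of 6 libraries. mt-Co2 followed with 1622 ± 365 TPM and mt-Atp6 with 1211 ± 310 TPM. The complex I genes lay lower, from 553 ± 123 TPM for mt-Nd1 to 180 ± 49.1 TPM for mt-Nd6. From mt-Nd1 down, the SD ranges of each gene and the next overlapped. mt-Atp8 was at 365 ± 78.2 TPM, although it is read from the same message as mt-Atp6 with its 1211 TPM, and it is the shortest protein gene at 204 bases, of which 43 are shared with mt-Atp6.

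As a share of all estimated counts, mitochondrial mRNA had its lowest means in both day 7 groups and its highest mean in day 1 injured cartilage. It took 1.497% ± 0.289 (SD, n = 6) of the counts in naïve libraries, 1.55% ± 0.327 (n = 3) in day 1 contralateral, 1.84% ± 0.521 (n = 3) in day 1 injured, 0.938% ± 0.647 (n = 3) in day 7 contralateral and 0.950% ± 0.368 (n = 3) in day 7 injured libraries. Library by library, the naïve group ran from 1.15% through a median of 1.52% to 1.90%. The day 1 injured libraries held 1.66%, 1.43% and 2.42%, and the day 7 injured libraries 0.673%, 0.810% and 1.37%. All 3 day 7 injured libraries thus lay below all 3 day 1 injured ones in unscaled share, but only the first 2 lay below the naïve range. On the TMM scale the injured groups overlapped. Day 7 injured replicate 3 had a summed mRNA normalised CPM of 16169.5, above day 1 injured replicates 1 (15570.7) and 2 (12470.1). In day 7 contralateral cartilage replicate 1 held 0.199% and the others 1.40% and 1.21%.

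**Figure D1:**
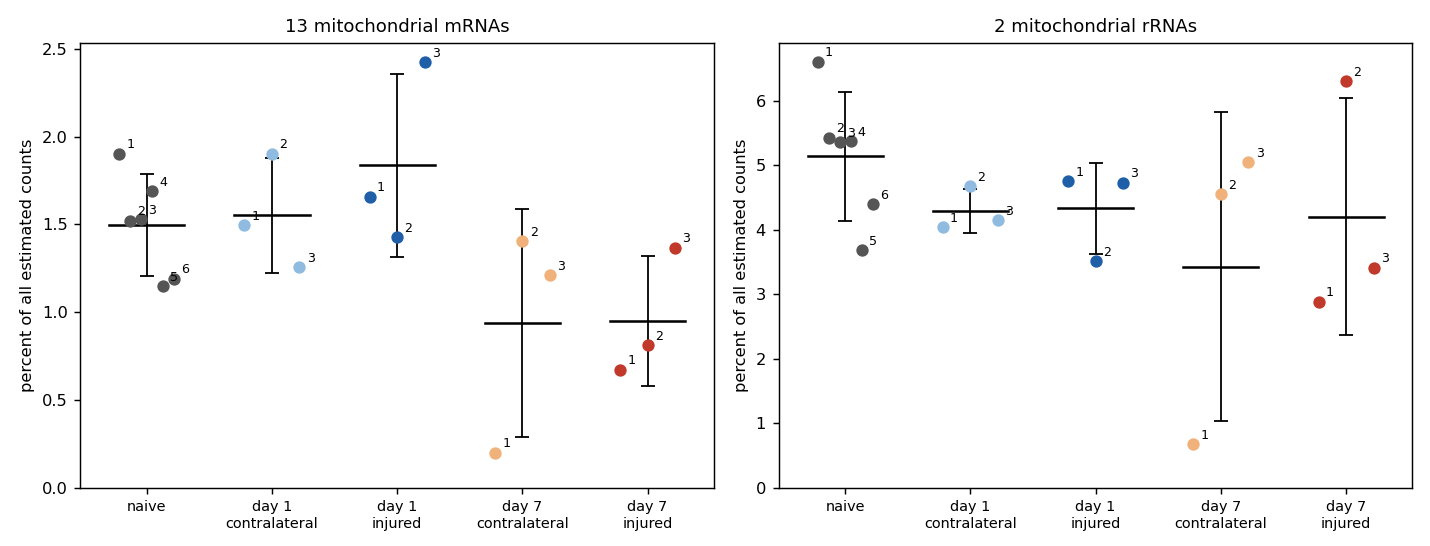
Share of all estimated counts (percent, vertical axes from 0) taken by the 13 mitochondrial mRNAs, left, and the 2 mitochondrial rRNAs, right, in each of 18 libraries by group. Points are libraries with their replicate numbers, horizontal lines are group means and bars are the SD, and day 7 contralateral replicate 1 lies at 0.199% and 0.676%, below all other libraries.

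None of these differences in shares of counts passed the test. For day 1 injured against naïve libraries the log2 ratio of mRNA shares was 0.30. It was larger as a share of TPM, with an exact permutation p under 0.05 before adjustment, as given in the closing section. Day 7 injured against naïve libraries gave a ratio of 0.635 with p = 0.0595 (exact 2-sided permutation test of the group means, 84 assignments), which became 0.667 after Benjamini-Hochberg adjustment over 28 tests of 4 RNA classes in 7 comparisons. Without day 7 injured replicate 3 this ratio was lower still, with an unadjusted exact permutation p under 0.05, which was the smallest that 2 against 6 libraries can give. The closing section gives these values and those for other single libraries. Day 7 injured against day 1 injured libraries gave a ratio of 0.517 with p = 0.10, the smallest that an exact permutation test of 3 against 3 can give. The lowest adjusted p of the 28 exact permutation tests was 0.667. For the day 7 contralateral group the mRNA ratio to naïve was 0.627 (exact permutation p = 0.0952), and without replicate 1 the log2 ratio was -0.20 in place of -0.67. Between day 7 injured and contralateral libraries the log2 ratio of mRNA shares was 0.02, and -0.46 without replicate 1. The rRNA share was 5.14% ± 1.00 (n = 6) in naïve, 4.29% ± 0.337 in day 1 contralateral, 4.33% ± 0.709 in day 1 injured, 3.43% ± 2.40 in day 7 contralateral and 4.201% ± 1.84 in day 7 injured libraries (n = 3 each). For day 7 contralateral against naïve libraries the log2 ratio of rRNA shares was -0.58, or -0.098 without replicate 1, and for day 7 injured against contralateral it was 0.29, or -0.19 without it. For day 1 injured against naïve libraries it was -0.25, but 0.20 as a share of TPM, so its direction depended on the unit. Its day 7 injured values were 2.89%, 6.30% and 3.41%, so the library with the most rRNA was not the one with the most mRNA. tRNA counts were very few everywhere, between 12.4 and 29.8 CPM. In day 7 injured libraries they stood at 17.4, 16.7 and 18.3 unscaled CPM, below the 28.4, 21.3 and 18.4 CPM of day 7 contralateral libraries (exact permutation p = 0.10, the smallest possible, adjusted 0.667), of which replicate 1 was the highest and replicate 3 lay only just above the injured libraries. On the TMM scale the direction depended on replicate 1. The 10 tRNA genes tested had a median log2 fold change of -0.33 with it, 8 below 0, and 0.26 without it, 7 above 0.

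At the level of single genes, day 7 injured against naïve cartilage was the comparison with the most called genes of the 8 made, and no chromosome M gene was called in it. The test was edgeR's quasi-likelihood F test over 15 libraries, and a gene was called at a false discovery rate (FDR) of at most 0.05 and a change of at least 1.5-fold, the study's own limits. Of 21129 genes tested, 16.6% were called either way, or 29.8% by FDR alone, whereas 0 of the 24 chromosome M genes that passed the filter on low counts were called by either rule. These 24 were all 13 protein genes, both rRNA genes and 9 of the 22 tRNA genes. The SE of their log2 fold changes ran from 0.22 (mt-Co1) to 0.46 (mt-Th). Moderate changes could thus be missed, and the 0 calls do not show that these genes were unchanged. At an unadjusted p under 0.05 there was 1 lower gene with edgeR, mt-Co3, and there were 2 each with DESeq2 and limma, mt-Co3 and mt-Co1, and both tools also called 0. Of all 21129 genes tested, 8679 were at an unadjusted p under 0.05 with edgeR, 8375 with DESeq2 and 8264 with limma. All 13 protein genes had a negative log2 fold change, with a median of -0.31 beside -0.04 for all genes tested, while both rRNA genes were slightly above 0.

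mt-Co3 came nearest to the limits. Its normalised CPM ran from 1785 through 2499 to 2930 (lowest, median and highest) in naïve libraries and was 1254, 1598 and 2312 in the day 7 injured ones. The first 2 injured libraries lay below every naïve library, and the third within their range. The log2 fold change was -0.48 ± 0.22 (SE), with an edgeR adjusted p of 0.117. mt-Co1 gave -0.42 ± 0.22 (adjusted p = 0.156) and mt-Co2 -0.39 ± 0.23 (adjusted p = 0.221). With the counts of its nuclear copies added, described further on, mt-Co2 gave -0.21 ± 0.25 (edgeR adjusted p = 0.562). The remaining mRNAs lay between -0.45 for mt-Nd3 and -0.01 for mt-Nd4l, both subunits of complex I, with edgeR adjusted p from 0.188 to 0.978. Among the rRNAs, mt-Rnr1 gave 0.07 ± 0.32 and mt-Rnr2 0.01 ± 0.25. These fold changes are on the TMM scale, whose factors were 0.829 to 0.852 in day 7 injured and 0.962 to 1.12 in naïve libraries, whereas the shares of counts carry no such factor.

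The 3 day 7 injured libraries differed widely among themselves. In all 13 protein genes, replicate 3 was the highest of its group, and replicates 1 and 2 lay below all 6 naïve libraries in 9 of them. The gap was widest for mt-Nd2, a complex I subunit, with a normalised CPM of 140 and 187 in replicates 1 and 2 and 602 in replicate 3, which is 3.68-fold above the mean of the other two. mt-Atp6 was at 557, 843 and 1726 in the same order, and mt-Cytb at 472, 572 and 1183. For the rRNAs it was replicate 2 that stood out, since mt-Rnr1 was at 5182, 15221 and 6056. Without replicate 3, edgeR called 4 of 25 chromosome M genes lower and 0 higher than in naïve cartilage, where 12.1% of all genes tested were called, 3.67% lower and 8.45% higher. They were mt-Cytb (log2 fold change -0.88 ± 0.23, adjusted p = 0.0175), mt-Co3 (-0.75 ± 0.24, adjusted p = 0.0415), mt-Nd5 (-0.72 ± 0.23, adjusted p = 0.0452) and the tRNA gene mt-Tp (-1.15 ± 0.34, adjusted p = 0.0311). The count of calls for day 7 injured cartilage thus depended on 1 library, which the labels do not set apart from the others.

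**Figure D2:**
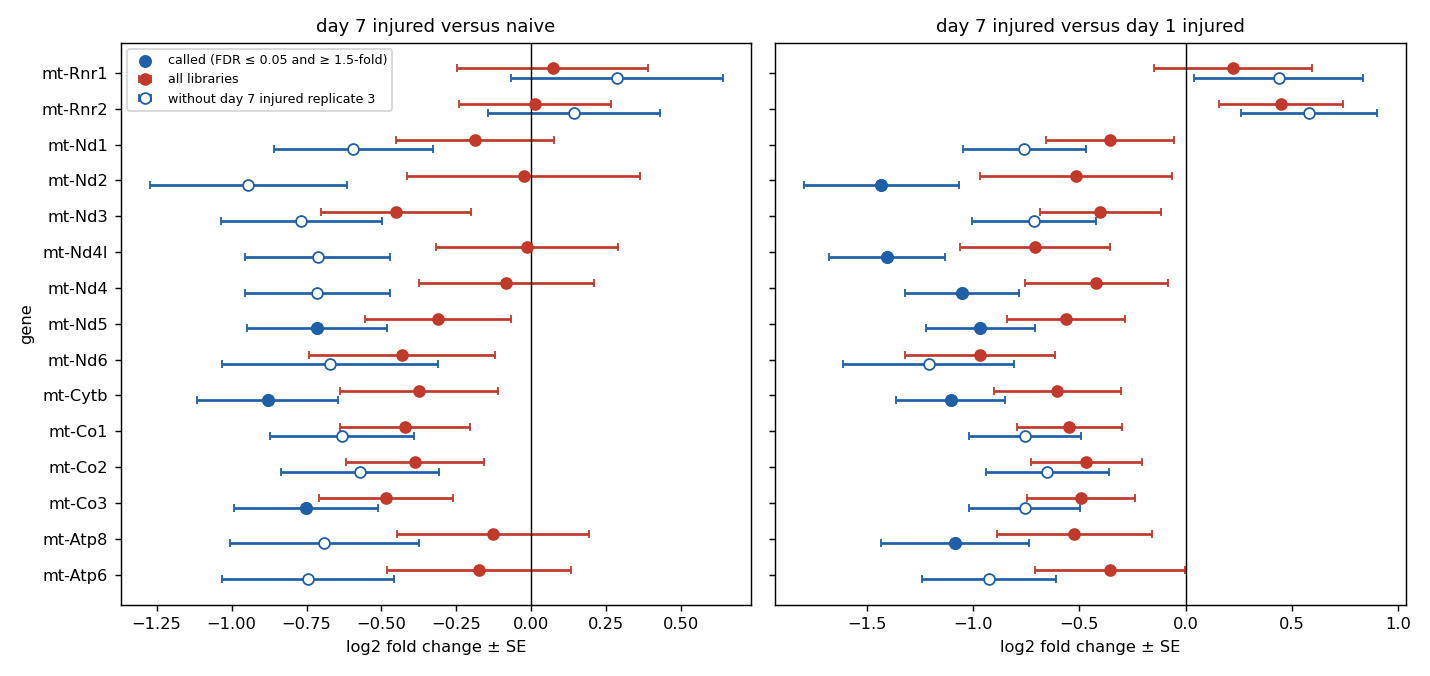
Log2 fold change (horizontal axes) with its SE for the 2 rRNA and 13 protein genes in day 7 injured against naïve, left, and against day 1 injured cartilage, right. Red points use all libraries, blue points leave out day 7 injured replicate 3, and filled blue points were called, which no red point was.

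Between the injured groups, all 13 mRNAs were again on the lower side at day 7, with log2 fold changes from -0.97 to -0.35 and a median of -0.52, beside 0.00 for all genes tested. The call rule took 15.4% of the 21129 genes (24.4% by FDR alone) and 0 of the 24 chromosome M genes. At an unadjusted p under 0.05 there were 2 lower genes with edgeR, mt-Nd6 and mt-Co1, and 5 each with DESeq2 and limma, and DESeq2 called 1, mt-Nd6. Of all genes tested, 7996 were at an unadjusted p under 0.05 with edgeR, 7657 with DESeq2 and 7754 with limma. mt-Nd6 was at a normalised CPM of 160, 111 and 257 in day 1 injured and 93.0, 56.7 and 116 in day 7 injured libraries, so the groups overlapped by a single library. Its log2 fold change was -0.97 ± 0.35 with an edgeR adjusted p of 0.0586, and DESeq2 gave -0.99 ± 0.34 with an adjusted p of 0.0215. Replicates 1 and 2 of the day 7 injured group lay below all day 1 injured libraries in all 13 protein genes. Leaving out replicate 3 gave 8 calls among 25 chromosome M genes with edgeR, 7 lower and 1 higher, where 11.4% of all genes tested were called, 4.1% lower and 7.29% higher. The largest falls among them were in mt-Nd2 (-1.43 ± 0.36, adjusted p = 0.0165) and mt-Nd4l (-1.41 ± 0.27, adjusted p = 0.00342), and the higher gene was the tRNA gene mt-Tn (1.21 ± 0.37, adjusted p = 0.0397). Few counts lay behind the mt-Tn call, a mean of 27.2 estimated counts per library (15 to 45). The calls were named after their values were seen.

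No chromosome M gene was called at day 1. Against naïve cartilage, against day 1 contralateral cartilage and between day 1 contralateral and naïve cartilage, 0% of 21129 genes were called by edgeR, chromosome M genes included, with 959, 1383 and 554 of all genes at an unadjusted p under 0.05. DESeq2 called 15, 0 and 2 genes in these comparisons and limma 0, none of them on chromosome M. At an unadjusted p under 0.05 there was 1 higher chromosome M gene in day 1 injured against naïve cartilage with edgeR and with limma, 1 lower one with DESeq2 (mt-Rnr2), and 0 in the other pair of comparisons with any of the 3 tools. That higher gene was mt-Nd4l, a small complex I subunit, with a log2 fold change of 0.70 ± 0.30 and an adjusted p of 0.987. In this comparison 12 of 13 protein genes were on the higher side (median 0.23), while both rRNA genes were on the lower side (mt-Rnr2 -0.44 ± 0.26, mt-Rnr1 -0.15 ± 0.32).

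Day 7 injured against day 7 contralateral cartilage called 12.6% of 21262 genes (18.6% by FDR alone) and 0 of the 25 chromosome M genes that passed the filter over 18 libraries, with 0 at an unadjusted p under 0.05 by edgeR, DESeq2 or limma. Of all genes tested, 6629, 6617 and 6157 were at an unadjusted p under 0.05 with these tools in turn. The median log2 fold change of the protein genes was 0.34, or -0.0033 without day 7 contralateral replicate 1, and over all 25 genes it was 0.22, or 0.10 without that library. mt-Nd6 gave -0.83 ± 0.45 with all libraries and -0.0033 ± 0.39 without that one, and mt-Ts1 gave -1.07 ± 0.64 and 0.47 ± 0.49. Day 7 contralateral against naïve cartilage called 0% of all genes with edgeR, with 3220 at an unadjusted p under 0.05, or 1201 without replicate 1, while DESeq2 called 8 and limma 0. Among chromosome M genes mt-Th was higher at an unadjusted p under 0.05 with edgeR (log2 fold change 1.08 ± 0.46, adjusted p = 0.291), mt-Th and mt-Tc were higher and mt-Nd1 lower with DESeq2, 9 were lower with limma, and none was called. Replicate 1 held the most mt-Th, a normalised CPM of 1.40 against 0.490 and 0.608 in the others of its group, and without it the log2 fold change of mt-Th was 0.57 ± 0.48 (edgeR adjusted p = 0.942), with 0 chromosome M genes at an unadjusted p under 0.05 and 0 called. These genes were named after their values were seen. The median over 25 chromosome M genes was -0.52, and -0.21 without replicate 1. The change in the effect of injury from day 1 to day 7, a contrast that uses the same day 7 contralateral libraries, was called in 3.77% of genes (4.01% by FDR alone) and in 0 chromosome M genes, with 0 at an unadjusted p under 0.05 by any of the 3 tools. Its median over the 25 was 0.05, and -0.03 without replicate 1. Of all genes tested for this contrast, 3458, 3465 and 3445 were at an unadjusted p under 0.05 with edgeR, DESeq2 and limma in turn.

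**Figure D3:**
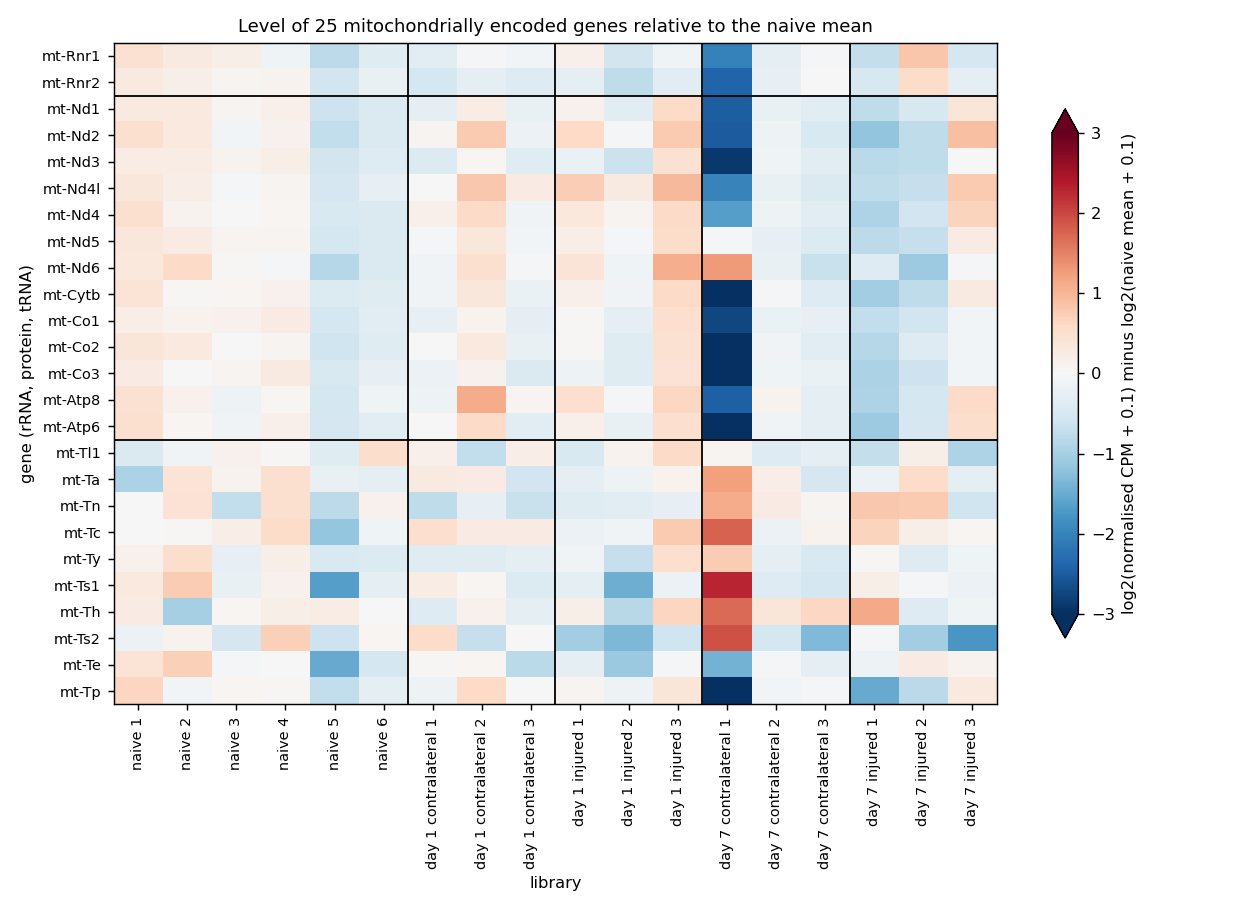
Level of the 25 chromosome M genes that passed the filter over 18 libraries (rows: rRNA, protein, tRNA) in each library (columns by group), as the difference of log2(normalised CPM + 0.1) from the naïve mean, with colours ending at -3 and 3. Day 7 contralateral replicate 1 is low in both rRNAs and 11 mRNAs but not in mt-Nd5, mt-Nd6 or mt-Ts1, and the mRNAs of day 7 injured replicate 3 sit above those of replicates 1 and 2.

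Measured within a library, which needs no scaling between libraries, the balance of mitochondrial mRNA to rRNA lay further towards mRNA in most day 1 libraries. The ratio of mRNA to rRNA counts was 0.292 ± 0.0175 (SD, n = 6) in naïve libraries, all between 0.271 and 0.314. In day 1 injured libraries it was 0.349, 0.406 and 0.512, all above the naïve range, and in day 1 contralateral libraries 0.370, 0.407 and 0.302. An exact permutation test of the means gave p = 0.0119 for day 1 injured against naïve, the smallest that 3 against 6 can give, and p = 0.0357 for day 1 contralateral against naïve, and both became 0.222 after adjustment over 28 ratio tests. Day 1 injured and contralateral libraries overlapped (exact permutation p = 0.50). At day 7 the ratio was 0.233, 0.129 and 0.401 in injured and 0.294, 0.308 and 0.239 in contralateral libraries, the first of the latter being the library with the smallest mitochondrial share. These ratio tests were chosen after the values were seen, and the ratio also carries how completely rRNA was removed from each library, which was not tested. The split of mRNA counts among the respiratory complexes was measured in the same way. Complex IV genes took 64.1% ± 1.65 (n = 6) of mitochondrial mRNA counts in naïve, 60.8% ± 1.65 in day 1 contralateral and 61.1% ± 1.11 in day 1 injured libraries (exact permutation p = 0.0476 and 0.0357 against naïve, adjusted 0.222). In day 7 injured libraries that share was 65.9%, 65.1% and 55.1%, lowest in replicate 3. In day 7 contralateral replicate 1 it was 39.3%, with complex I genes at 55.2%.

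**Figure D4:**
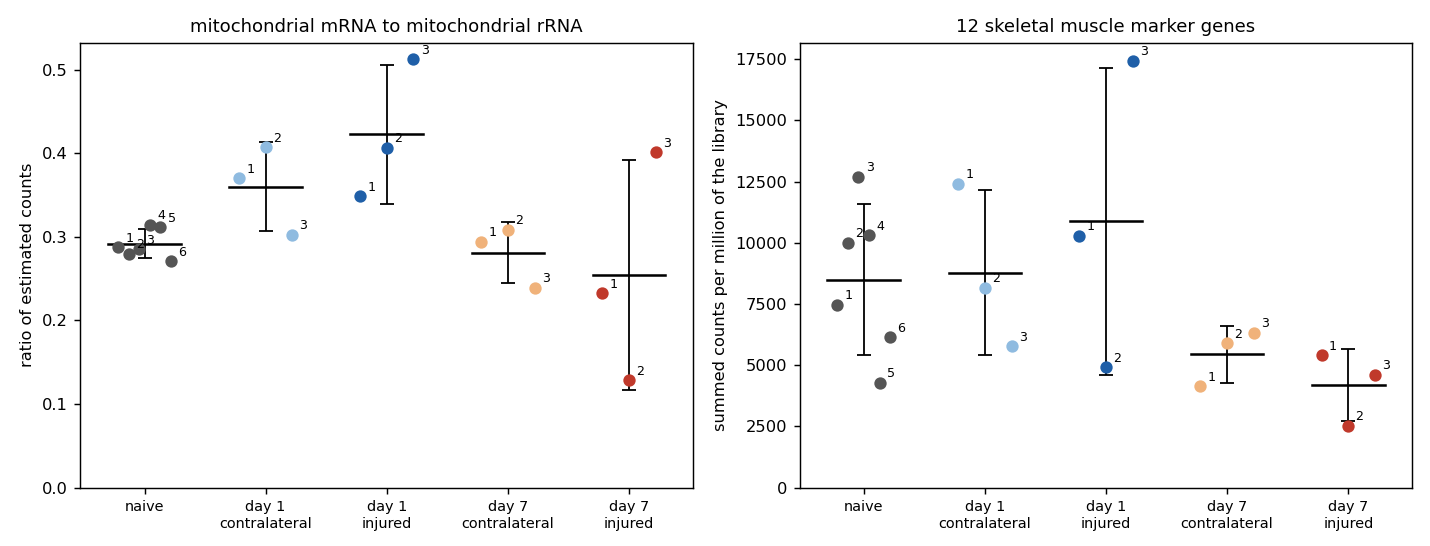
Ratio of mitochondrial mRNA to mitochondrial rRNA counts, left, and summed unscaled CPM of 12 skeletal muscle marker genes, right, in each of 18 libraries by group, with group means and SD. All day 1 injured libraries lie above the naïve range of 0.271 to 0.314 in the ratio, and day 1 injured replicate 3 is highest in both panels.

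Muscle RNA was measured beside mitochondrial mRNA in each library. The summed level of 12 skeletal muscle genes, of which Myh4 (a fast myosin heavy chain) was the most abundant and none was at 0 in all libraries, was highest in day 1 injured replicate 3, at 17423 unscaled CPM, the library with the most mitochondrial mRNA. In the day 1 injured group the sums were 10290, 4931 and 17423 CPM beside mitochondrial mRNA shares of 1.66%, 1.43% and 2.42%, in the same order. Among naïve libraries replicate 5 was lowest in both, at 4281 CPM and 1.15%, whereas replicate 3 had the most muscle RNA (12703 CPM, with a share of 1.53%) and replicate 1 the highest share (1.90%, with 7477 CPM). Day 1 contralateral libraries held 12405, 8166 and 5769 CPM beside shares of 1.497%, 1.90% and 1.26%. These groups thus differed in whether the orders matched. At day 7 the sums were 4135, 5889 and 6325 CPM in contralateral libraries, with shares of 0.199%, 1.40% and 1.21%, and 5410, 2540 and 4613 CPM in injured ones, with shares of 0.673%, 0.810% and 1.37%. In day 7 injured against naïve cartilage 1 of the 12 was called lower, with a list median of -0.76, where 10.4% of all genes were called higher and 6.11% lower. For the erythroid list (9 of 10 genes matched, Hbb-bs the most abundant) 5 of 9 were called lower with a median of -0.60, for adipocyte genes 5 of 10 were called lower with a median of -1.45, and for the chondrocyte list 4 of 10 were higher and 1 lower with a median of 0.52. Of 10 endothelial genes 5 were called higher, of 10 synovial fibroblast genes 4 were higher, and of 10 neutrophil and marrow genes 2 were lower. Of 10 osteoblast and osteocyte genes 2 were higher and 2 lower, of 8 osteoclast genes 1 was higher, of 10 B cell genes 1 was lower, and of 10 macrophage genes 0 were called, with 3 higher and 1 lower by FDR alone. The part of these tissues in the mitochondrial values was not tested.

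The tRNA genes gave few counts, and most fell on genes of the reverse strand. The 8 tRNA genes of the reverse strand took 86.6% to 93.8% of tRNA counts in every library, which was 244 to 698 counts, while the 14 genes of the other strand shared 25 to 94. mt-Tp averaged 124 estimated counts per library, mt-Te 90.4, mt-Ts1 89.2, mt-Ty 69.9 and mt-Tc 65.8, the 5 genes whose sequences are shown above. No gene of the other strand averaged more than 10.9 (mt-Th), and mt-Td averaged 0.0556. The strand setting of the quantification was not given in the sources used here. If reads were counted without strand, reads from a reverse-strand gene and from the precursor running opposite to it cannot be told apart, and the same holds for mt-Nd6. None of the tRNA genes was called in any of the 8 comparisons with edgeR. In day 7 contralateral replicate 1 the reverse-strand tRNAs did not move together, with mt-Tp at a normalised CPM of 0.545 (1.72 to 7.99 in the other 17) and mt-Te at 1.48, but mt-Tc at 7.63 (0.914 to 3.81 in the others) and mt-Ty at 5.22 (1.84 to 4.44). Unscaled, mt-Tp at 0.365 CPM stayed below the others (1.41 to 8.38) and mt-Tc at 5.11 CPM above them (1.02 to 4.35), while mt-Ty at 3.49 CPM lay within their range (1.87 to 4.92).

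**Figure D5:**
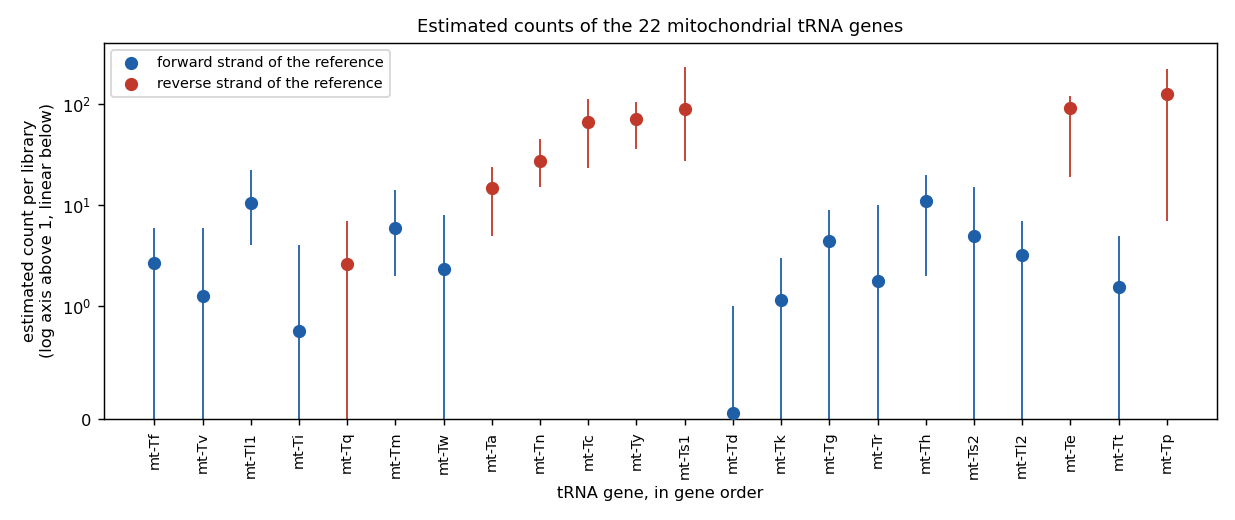
Mean estimated count per library of each of the 22 mitochondrial tRNA genes in chromosome order (vertical axis logarithmic above 1 and linear below), with lines from the lowest to the highest of 18 libraries. Genes of the reverse strand, in red, take the 7 highest means, and mt-Tq is the only one of that strand below 10.

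Copies of mitochondrial genes in the nuclear genome can draw counts away from the true genes. A stretch of chromosome 1 holds annotated pseudogenes that match parts of 4 mitochondrial mRNAs at 100% identity over 678 to 876 bases, so that a read within them cannot be placed. It also holds shorter copies of mt-Nd4l (100% identity over 294 bases) and mt-Nd3 (99.71% over 345 bases), which were given mean counts of at most 0.03. Gm28439 (chr1:24611535-24612410), the copy of mt-Nd4, was given 0 to 5505 counts per library, or 0 to 28.7% of its sum with mt-Nd4, with a median of 14.1%. The mt-Co2 copy Gm28661 was given 5 counts or fewer in 16 libraries, but 1346 in day 7 injured replicate 2 and 8703 in day 7 injured replicate 3, which is 20.96% of its sum with mt-Co2 there. In that same replicate 3, Gm28439 was given 0. Gm10925, the copy of mt-Atp6, took 0.237% to 7.52%, and Gm28437, the copy of mt-Co3, 0 to 1.86%. edgeR called Gm28437 lower in day 7 injured against naïve cartilage, with a log2 fold change of -3.35 ± 0.99 (adjusted p = 0.0196), while mt-Co3, whose sequence it shares, was not called. Gm29216, a copy of part of mt-Co1, gave -2.07 ± 0.75 (adjusted p = 0.0486). The remaining copies with a mean of 10 counts or more, Gm13340 for mt-Co1 and Gm13341 for mt-Co2, took at most 0.0719%. Adding the copies of at least 95% identity to their genes left 0 chromosome M genes called in every comparison.

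Few nuclear genes that work with these genes were called. Of 82 listed nuclear genes for subunits of the respiratory complexes and ATP synthase, 81 were tested in day 7 injured against naïve cartilage, and 1 was called higher and 0 lower, where 16.6% of all genes were called. That gene was Cox4i2, an isoform of a cytochrome c oxidase subunit (log2 fold change 1.00 ± 0.23, edgeR adjusted p = 0.00469). The list median was -0.05, beside -0.04 for all genes. As a share of all counts, with no TMM factor, the nuclear subunit mRNAs took 0.380%, 0.344% and 0.340% in day 7 injured libraries, all below the naïve range of 0.413% to 0.497%, a difference for which no test was made. Among 17 genes of mitochondrial transcription and replication, 1 was called lower, Polg2, the accessory subunit of the mitochondrial DNA polymerase (-0.64 ± 0.15, adjusted p = 0.00469), and the list median was -0.03. By FDR alone Tfb1m and Mterf3 were lower as well. None was called among 25 genes of mitochondrial RNA processing and stability (median 0.06), 12 translation factors of the organelle (median 0.00), 10 regulators of mitochondrial biogenesis (median -0.13) and 15 proteins often used as markers of mitochondrial mass (median -0.03). By FDR alone, these 4 lists held 4 higher and 2 lower genes, where 29.8% of all genes passed. Between day 7 and day 1 injured cartilage 2 of the 81 nuclear subunit genes were called higher and 1 lower, where 15.4% of all genes were called, namely Cox4i2, Cox6a1 and the muscle isoform Cox6a2, named after their values were seen. The counts of mitochondrial mRNA per count of the nuclear subunit mRNAs were 3.27 ± 0.571 (SD, n = 6) in naïve libraries. In the day 7 injured libraries this quotient was 1.77, 2.35 and 4.03, of which the first 2 lay below the naïve range of 2.69 to 4.26 and the last within it.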

How the data were processed

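RNA was measured in 18 libraries. The authors trimmed reads and quantified transcripts with kallisto, and deposited estimated counts and TPM per transcript. Transcripts were matched by identifier without version to the GENCODE M21 annotation (GRCm38). Of 137436 transcripts 98.3% matched, and the 2329 others held 0.667% to 3.90% of counts and stayed in the totals. The study's methods name a mouse annotation and the labels a human build, and the identifiers are of mouse. Counts and TPM were summed per gene, and counts were rounded. Tests used edgeR 4.0.16 (quasi-likelihood, TMM, filterByExpr, group means, Benjamini-Hochberg adjustment), with DESeq2 1.42.0 and limma 3.58.1 as alternatives, in R 4.3.3. Fits used 15 libraries, and 18 where the day 7 contralateral group entered. Shares are percentages of all estimated counts, with exact permutation tests. Nuclear copies were found with blastn 2.17.0 (at least 90% identity over at least 100 bases). The edgeR script was tested on simulated data. Members and lists were chosen with earlier results of these data known. Named genes were all protein and rRNA genes, the 5 tRNA genes with most counts, called genes, nuclear copies with a mean of 10 counts or more, and, for each list, up to 2 called genes at each end. Outside these rules, the tRNA genes mt-Th, mt-Td and mt-Tq, the nuclear genes Tfb1m and Mterf3, and marker genes of tissues were also named. Alternatives were other scalings, filters, tools, denominators, an offset for transcript length, added nuclear copies, and each library left out. The study fitted limma-voom with a correlation for libraries of the same mouse pool, and the labels used here do not give the pools, so P-values measure the spread between libraries taken as independent. The study removed 1 library with poor mapping without naming it. The mouse numbers and pool sizes of its scheme account for 18 libraries, as many as are analysed here. By that scheme the removed library is among them, but which one is not known, so the results here include it.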

Additional observations from a re-analysis of the deposited data

Results flagged for a closer look

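Of 29 values examined in the 6 naïve libraries, 2 had a library far from the rest by Dixon's test at its 95% limit, where chance alone gives about 1 in 20. The tRNA gene mt-Th was at 0.124 unscaled CPM in naïve replicate 2 and at 0.363 to 0.486 in the other naïve libraries. The tRNA gene mt-Tp was at 8.38 unscaled CPM in naïve replicate 1 and at 3.35 to 5.24 in the others. Neither gene was called in any comparison with all libraries.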

How the results depend on the processing

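The 8 counts of called chromosome M genes, all 0, were recomputed under 135 alternatives, of which 131 also gave 0. With DESeq2's Wald test 1 gene was called between day 7 and day 1 injured cartilage. Leaving out 1 library at a time gave 0 to 4 calls for day 7 injured against naïve cartilage, with 4 only without day 7 injured replicate 3, and 0 to 8 for day 7 against day 1 injured cartilage, with 8 without day 7 injured replicate 3 and 1 without day 1 injured replicate 2. Groups with a library left out are assumed to vary like the others.

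Log2 ratios of mRNA and rRNA shares were recomputed under 164 alternatives, of which 156 moved by less than 1 SD and stayed on the same side of the threshold of the exact permutation test. Leaving out single libraries moved the mRNA ratio of day 7 injured to naïve libraries, -0.66, to between -1.01 and -0.46, with p = 0.0357 (exact permutation) without day 7 injured replicate 3 or without naïve replicate 5 or 6. The rRNA ratio of the same groups, -0.29, moved to between -0.71 and -0.082, with p = 0.0357 (exact permutation) without day 7 injured replicate 2. Where a day 7 injured library was left out, p = 0.0357 was the smallest that the exact permutation test of 2 against 6 can give. As a share of TPM, the mRNA ratio of day 1 injured to naïve libraries rose from 0.30 to 0.76 (exact permutation p = 0.0238), and the rRNA ratios became 0.20 for day 1 injured against naïve, 0.22 for day 1 injured against contralateral and -0.022 for day 1 contralateral against naïve, with the cause not tested. No paired analysis was possible because the labels do not say which libraries share mice. The study's own model allowed for shared pools, which could not be repeated here.

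With 3 libraries a group, an exact permutation test cannot reach 0.05. How completely rRNA was removed from each library was not tested.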
